A study of Homo sapiens with 6 samples.

Results

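The histone genes of LM3 cells, a human hepatocellular carcinoma (HCC) line, were examined with and without stable knockdown of ZNF706. The members were chosen by gene name. They are the genes of the H1, H2A, H2B, H3 and H4 families whose symbols are H1-, H2AC, H2BC, H3C or H4C followed by a number, 63 of the 33007 genes in the deposited table, and pseudogenes were left out. Histone genes with other symbols, such as H3-4 or H2AZ1, are not members. They comprise 10 H1, 14 H2A, 15 H2B, 13 H3 and 11 H4 genes. Of these, 48 lie on chromosome 6 and 11 on chromosome 1, and the others are H1 genes elsewhere, among them H1-8 and H1-10 on chromosome 3 and H1-7 on chromosome 12. RNA-seq was available for 3 control samples (the vector control of the study) and 3 ZNF706 knockdown samples, all with the genotype label WT. The study made its knockdown lines by lentiviral transduction of a pLKO.1 vector carrying an shRNA against ZNF706, followed by puromycin selection. Nothing in the sources used here says whether the 3 samples of a group came from separate cultures or which shRNA they carried, so p-values measure the spread between these samples only. The total counts per library were 62684076, 64713764 and 63054445 in the control group and 68548419, 65861994 and 69057423 in the knockdown group, so the knockdown libraries were the deeper ones. The labels give liver and HCC. The epithelial keratin KRT8 stood at 1537 ± 39.5 CPM (the count scaled to the library's total with TMM factors; SD, n = 3) in the control group, while albumin (ALB), the defining hepatocyte product, was at 3.05, 14.1 and 14.4 CPM, far below it.

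Histones package DNA into nucleosomes. The core histones H2A, H2B, H3 and H4 form the octamer around which DNA is wrapped, and the linker histone H1 binds the DNA that enters and leaves it. Most members stand in gene clusters, are transcribed mainly during S phase under the coactivator NPAT, and give mRNAs that carry no poly(A) tail. Their mRNAs end instead just after a conserved 3′ stem-loop, which is bound by the stem-loop binding protein SLBP and cut at that end by a machinery that includes the U7 snRNP. Some cluster genes can also give longer, polyadenylated transcripts that run past the stem-loop. H1-10 is a replication-independent linker histone with an ordinary polyadenylated mRNA.

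These 3′ ends are shown first because libraries that select for poly(A) tails read them to different extents. The stem-loop was searched as GG, any 3 bases, TTTT, any 5 bases and CC, on the gene's strand, within the first 100 bases after the stop codon, in GENCODE release 29 transcripts (GRCh38) with a 3′ UTR of at least 50 bases. Of 35 members with such a UTR, 26 held it, against 47 of 16460 other protein-coding genes (0.286%). The other 28 members have no 3′ UTR of that length in this annotation and were not counted, although the UTR of H4C11, at 44 bases, also held it. The 26 hits fell into 5 sequences of 16 bases. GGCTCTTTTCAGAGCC was found in 15 members, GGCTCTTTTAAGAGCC in 4, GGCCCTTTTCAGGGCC and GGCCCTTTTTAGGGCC in 3 each and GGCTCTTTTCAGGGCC in H2AC11 alone. Below, the stem-loop with its flanks is given for members named in the results, with the stem-loop in capitals. All are on chromosome 6 but H4C14, which is on chromosome 1.
H2AC6 (chr6:26124664-26124689, plus strand): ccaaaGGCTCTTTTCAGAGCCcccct
H2BC9 (chr6:26252050-26252075, plus strand): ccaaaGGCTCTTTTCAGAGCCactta
H2BC5 (chr6:26158582-26158607, plus strand): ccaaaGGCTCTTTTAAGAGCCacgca
H2BC4 (chr6:26123467-26123492, minus strand): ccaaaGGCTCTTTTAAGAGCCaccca
H3C8 (chr6:26270918-26270943, minus strand): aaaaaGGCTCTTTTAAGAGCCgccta
H2AC11 (chr6:27133510-27133535, plus strand): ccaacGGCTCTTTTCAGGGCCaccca
H4C14 (chr1:149833027-149833052, plus strand): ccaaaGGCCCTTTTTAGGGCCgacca
H4C9 (chr6:27139649-27139674, plus strand): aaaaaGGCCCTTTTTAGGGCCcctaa

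Some annotated transcripts go on well beyond this element. In 22 members, an annotated transcript had the polyadenylation signal AATAAA within its last 50 bases, past any stem-loop match in the same transcript. In H2BC15 the match stands in another transcript and lies downstream of the signal. All 22 members with the signal are among the 35 with a 3′ UTR of at least 50 bases. Of the other protein-coding genes with such a UTR, 73.9% had AATAAA within the last 50 bases. The signal lay 1115 bases downstream of the stem-loop's first base in the H2AC6 transcript, 1634 bases in H2BC9, 1512 bases in H3C8, 1754 bases in H2AC11 and 1150 bases in H4C14. The ends of 4 of these members are given with the signal in capitals, the last 2 of them without a stem-loop match in the searched window.
H2AC6 (chr6:26139076-26139105, plus strand): ctggcatgaggtAATAAAaggtaatgcaaa
H2BC9 (chr6:26253677-26253706, plus strand): aaataattttttAATAAAaggtttttttaa
H3C6 (chr6:26227440-26227469, plus strand): gttgagatgtaaAATAAAagattactgaac
H1-10 (chr3:129314775-129314804, minus strand): ttttttgggcacAATAAAgcgtttaaacct

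The libraries held few reads from histone genes. The 63 members took 0.0422%, 0.0420% and 0.0420% of all counts in the control libraries, against 0.0478%, 0.0501% and 0.0507% with the knockdown, and the groups did not overlap. Other RNAs that are encoded in the nuclear genome and lack a poly(A) tail were also scarce. The mitochondrial rRNAs MT-RNR2 and MT-RNR1, which carry short or no tails, instead stood at means of 4712 and 503 CPM in the control group. Of 27 such RNAs of the nuclear genome from a fixed list (snRNAs, scaRNAs, snoRNAs, RN7SK, TERC and others), 13 had at most 3 counts in every sample. RN7SL1, the most abundant of the 27, had a mean of 4.54 CPM. RN7SK, the abundant RNA of the 7SK particle, was counted 12, 26 and 15 times in the control libraries, against 17, 24 and 28 times with the knockdown. How RNA was selected for these libraries is not given in the sources used here, so the histone values describe the transcripts that the libraries held and not the whole pool of histone mRNA in the cells.

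ZNF706, the targeted gene, had 51.9, 55.1 and 54.7 CPM in the control samples and 33.5, 30.8 and 32.8 CPM in the knockdown samples. No knockdown sample overlapped a control sample. It fell by 39.9%, a log2 fold change of -0.73 with a standard error of 0.050 and an adjusted p of 3.7e-05 from edgeR's quasi-likelihood test.

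By deposited FPKM, which is scaled to gene length and lets genes be compared, a few members held most of the signal. H2BC12, a core H2B gene, was the most abundant in the control group at 127 ± 3.59 FPKM (SD, n = 3). The linker histones H1-2 (61.2 ± 5.53 FPKM) and H1-10 (54.4 ± 1.23 FPKM) came next. The identical H2A copies H2AC18 (13.4 ± 0.785 FPKM) and H2AC19 (13.2 ± 0.787 FPKM) were lower. H2AC6 and H2BC11 stood at 10.2 ± 0.670 and 10.1 ± 1.18 FPKM. H1-2 and H1-10 differed by little more than the SD of H1-2, and H2AC18 and H2AC19, and H2AC6 and H2BC11, by less than their SDs, whereas H2BC12 was clearly apart from all others. The 5 members with the highest mean over all samples together held 73.8% to 76.7% of the summed histone FPKM in each library. At the other end, 39 of the 63 members had a mean below 1 FPKM, and H1-7 and H1-8 had no count in any sample.

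Of the 63 members, 44 passed the filter on low counts and were tested. The 19 that were not tested had at most 37 counts in any library. They are the linker genes H1-1, H1-3, H1-6, H1-7 and H1-8, the H2A genes H2AC4, H2AC7, H2AC12, H2AC14 and H2AC21, the H2B genes H2BC10 and H2BC14, the H3 genes H3C1, H3C7, H3C11, H3C12 and H3C13, and the H4 genes H4C1 and H4C2. Across all genes, edgeR's quasi-likelihood test called 22.8% of 18390 genes at an adjusted p below 0.05, 10.4% higher and 12.4% lower in the knockdown. Of the 44 tested members, 10 were called higher (22.7%) and 1 was called lower (2.27%). The groups did not overlap in 16 members that were higher and in 1 that was lower, where 19.7% of all tested genes were higher without overlap and 19.7% lower. The median log2 fold change was 0.30 over the tested members and 0.01 over all tested genes, and 31 of the 44 were above 0. By level, the median was -0.07 over the 11 members with a mean of at least 5 FPKM and 0.38 over the 33 tested members below it. In bulk RNA, a change in the share of cells that express a gene and a change in RNA per cell cannot be told apart.

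**Figure D1:**
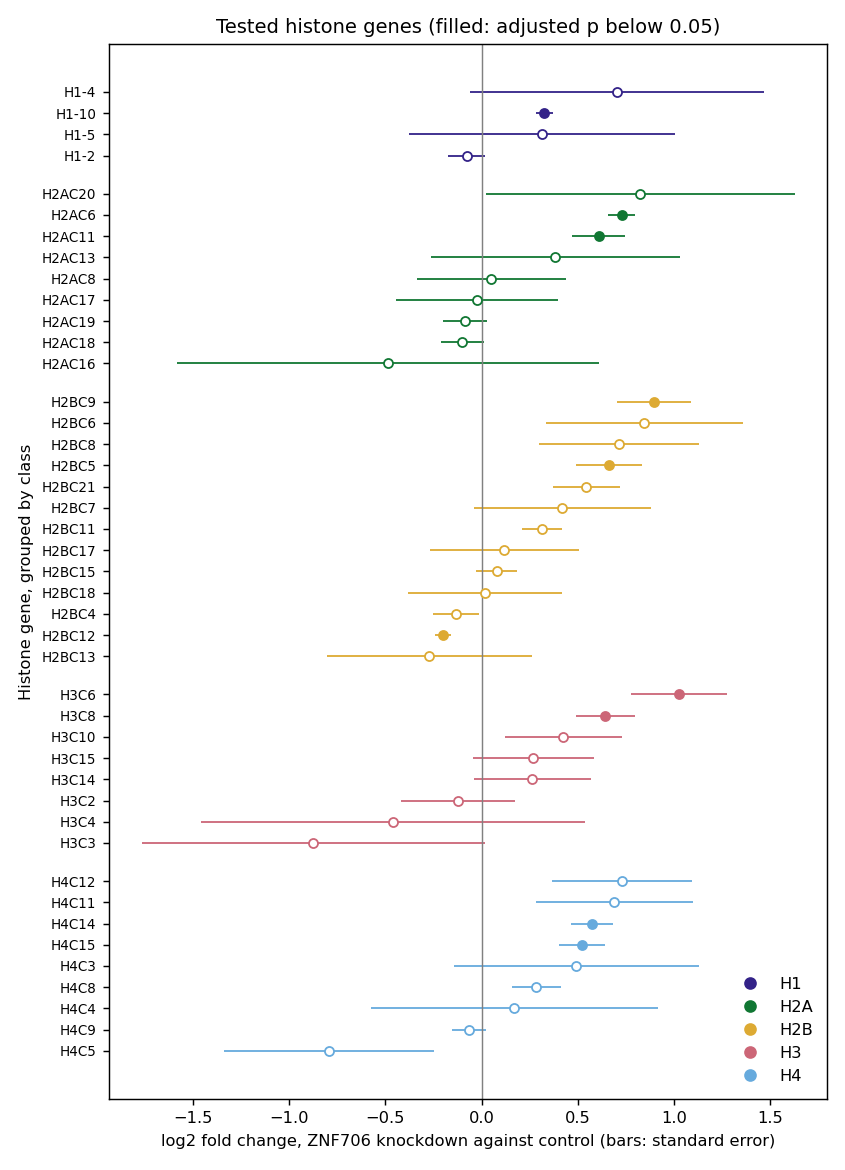
Log2 fold change (x axis, ZNF706 knockdown against control, with the standard error) of the tested histone genes named in the figure (y axis), coloured by class and filled where the adjusted p was below 0.05. The filled points lie to the right of 0 but for H2BC12, which lies to the left, and the widest bars belong to genes with few counts.

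Among the linker histones, H1-10 (ENSG00000184897, chromosome 3, 129314771 to 129316286, minus strand) was at 94.6, 93.5 and 98.7 CPM in the control samples and at 113, 123 and 124 CPM in the knockdown samples, and the groups did not overlap. It rose by 25.3% (log2 fold change 0.33, standard error 0.044, adjusted p = 0.000847). H1-2, the abundant linker gene of the chromosome 6 cluster, was at 51.9, 46.9 and 56.7 CPM against 42.0, 50.7 and 54.8 CPM. The groups overlapped widely, and its log2 fold change of -0.08 (standard error 0.096) did not pass the test. Summed over the 6 linker genes of the cluster, the level was 61.7 ± 5.46 FPKM in the control group and 60.9 ± 8.10 FPKM in the knockdown group (SD, n = 3).

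Among the H2A genes, which encode a partner of H2B in the nucleosome, the clearest difference was at H2AC6 (ENSG00000180573, chromosome 6, 26124145 to 26139116, plus strand). It was at 20.9, 19.5 and 18.8 CPM in the control samples and at 31.7, 33.6 and 32.6 CPM in the knockdown samples. Every knockdown sample was far above every control sample, and the rise was 1.66-fold (log2 fold change 0.73, standard error 0.068, adjusted p = 0.000131). H2AC11 (chromosome 6, 27133042 to 27135291, plus strand) was at 3.97, 3.21 and 3.29 CPM against 5.28, 5.20 and 5.49 CPM. It rose 1.52-fold (log2 fold change 0.61, standard error 0.14, adjusted p = 0.0109). H2AC18 and H2AC19 on chromosome 1 did not share this difference. They have identical coding sequences and almost equal counts in every library (510 and 524 in control 1, 605 and 618 in knockdown 3), so they were read as a single measurement whose split between the copies is uncertain. H2AC18 was at 8.24, 8.23 and 9.22 CPM against 7.12, 8.20 and 8.65 CPM, which overlap, with a log2 fold change of -0.10 (standard error 0.11). Over the class, 2 of 9 tested H2A genes were called higher (22.2%) and none lower, against 10.4% and 12.4% of all tested genes.

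Both directions were seen among the H2B genes. H2BC12 (ENSG00000197903, chromosome 6, 27146361 to 27146855, minus strand) was at 70.2, 74.9 and 73.2 CPM in the control samples and at 60.7, 64.9 and 64.3 CPM in the knockdown samples. It fell by 13.0% (log2 fold change -0.20, standard error 0.042, adjusted p = 0.00766), and it was the sole member called lower. H2BC9 (chromosome 6, 26251651 to 26253710, plus strand) was at 1.37, 1.67 and 1.25 CPM against 2.82, 2.62 and 2.56 CPM, a rise of 1.86-fold without overlap (log2 fold change 0.90, standard error 0.19, adjusted p = 0.00894). H2BC5 (chromosome 6, 26158146 to 26171349, plus strand) was at 4.77, 7.11 and 8.18 CPM against 10.1, 11 and 10.6 CPM, with control 1 well below the other controls. It rose 1.58-fold (log2 fold change 0.66, standard error 0.17, adjusted p = 0.0211), and the adjusted p was 0.054 without control 2, 0.079 without knockdown 2 and 0.056 without knockdown 3. With the other processing settings counted too, the call on H2BC5 was lost in 4 settings. H2BC11 and H2BC21 lay just outside the threshold. H2BC11, the 8th member by mean FPKM, was at 13.5, 12.3 and 10.9 CPM against 14.7, 14.6 and 16.5 CPM (log2 fold change 0.32, standard error 0.10, adjusted p = 0.0539). H2BC21 was at 2.68, 2.86 and 4.02 CPM against 4.62, 4.38 and 4.96 CPM (log2 fold change 0.55, standard error 0.18, adjusted p = 0.0515). H2BC4 overlapped between the groups, with 7.24, 6.72 and 6.53 CPM against 6.32, 5.53 and 6.85 CPM (log2 fold change -0.13, standard error 0.12). H2BC6 had the largest log2 fold change among the uncalled H2B genes (0.85, standard error 0.51), on 9 to 18 counts per control library and 21 to 29 per knockdown library. H2BC12 held most of the H2B signal, and the summed H2B level was 156 ± 3.87 FPKM in the control group and 152 ± 4.78 FPKM in the knockdown group, within the spread of the samples.

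H3 genes were represented by few reads. H3C6 (chromosome 6, 26224199 to 26227473, plus strand) had the largest log2 fold change of all tested members. It was at 1.39, 2.17 and 1.21 CPM in the control samples and at 2.91, 3.92 and 2.89 CPM in the knockdown samples, a rise of 2.04-fold (log2 fold change 1.03, standard error 0.25, adjusted p = 0.0162). The rise was carried by 74 to 138 counts per control library and 202 to 263 per knockdown library. Its adjusted p was 0.056 without control 1, 0.060 without control 3 and 0.075 without knockdown 2. With the other processing settings counted too, the call on H3C6 was lost in 4 settings. H3C8 (chromosome 6, 26269405 to 26271815, minus strand) was at 2.50, 2.86 and 2.26 CPM against 3.81, 4.13 and 3.99 CPM and rose 1.56-fold (log2 fold change 0.64, standard error 0.15, adjusted p = 0.0149), with an adjusted p of 0.057 without control 3 and 0.058 without knockdown 2. H3C3 had the lowest log2 fold change of all tested members, -0.88, but its standard error was 0.89 and its counts ran from 3 to 30 in the control samples and from 3 to 13 in the knockdown samples.

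For H4, which pairs with H3, the calls came from a copied gene. H4C14 (chromosome 1, 149832659 to 149839767, plus strand) and H4C15 (chromosome 1, 149854045 to 149861148, minus strand) have identical coding sequences. Their counts were close in most libraries (413 and 409 in control 1, 649 and 648 in knockdown 3) and furthest apart in control 2 (406 and 456). They are therefore best read as a single measurement. H4C14 was at 6.67, 6.39 and 5.83 CPM in the control samples and at 10.2, 8.66 and 9.27 CPM in the knockdown samples, a rise of 1.49-fold without overlap (log2 fold change 0.57, standard error 0.11, adjusted p = 0.00498). H4C15 rose 1.44-fold (log2 fold change 0.52, standard error 0.12, adjusted p = 0.0112, and 0.051 without control 3). H4C9, the H4 gene with the highest FPKM, was at 13.4, 13.6 and 13.3 CPM against 12.4, 13.9 and 12.3 CPM and showed no such difference (log2 fold change -0.07, standard error 0.087). H4C5, at -0.79 with a standard error of 0.55, and H2AC16 of the H2A class, at -0.49 with a standard error of 1.09, had the next lowest values among the tested members, and neither passed the test.

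**Figure D2:**
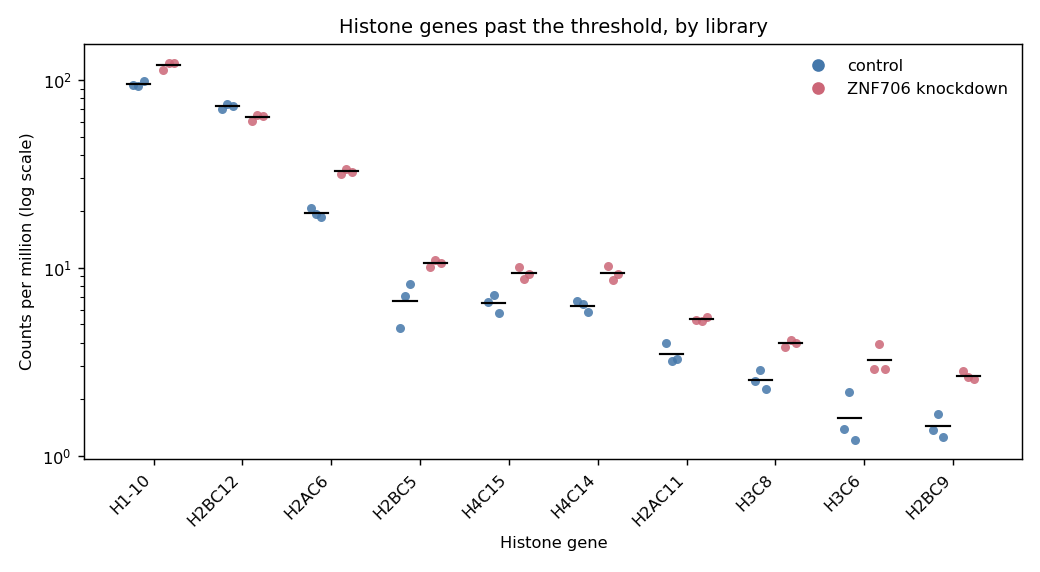
TMM-scaled CPM (y axis, log scale) of 10 histone genes with an adjusted p below 0.05 (x axis), each point a library and each line the mean of 3. In every gene the 3 knockdown points lie on a single side of the 3 control points, below them in H2BC12 and above them in the others.

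**Figure D3:**
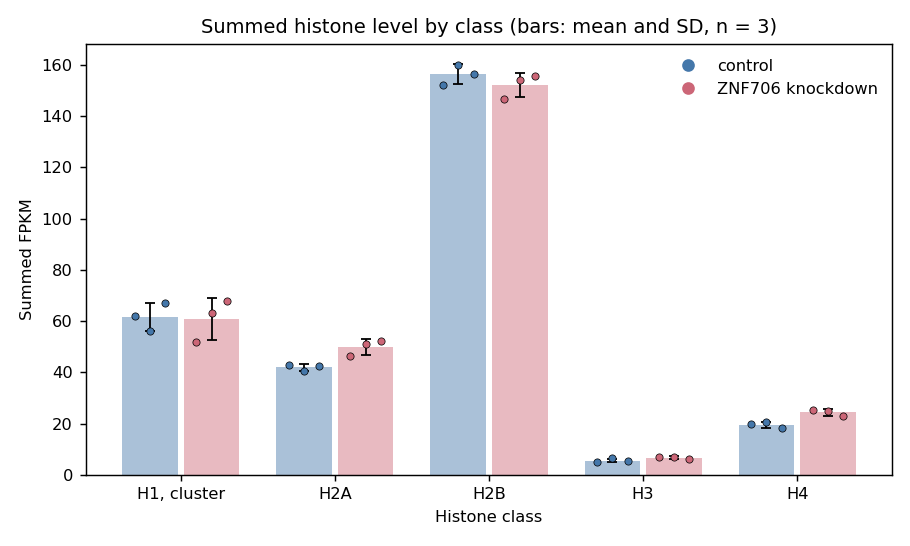
Summed deposited FPKM (y axis) by histone class (x axis), with H1 limited to the linker genes of the chromosome 6 cluster, as the mean and SD of 3 samples with each sample as a point. The levels were 41.9 against 49.7 FPKM for H2A and 19.5 against 24.4 FPKM for H4, while cluster H1 and H2B overlapped between the groups.

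Summed over all members, the level was 370 ± 3.77 FPKM in the control group and 400 ± 17.98 FPKM in the knockdown group (SD, n = 3), 1.08-fold higher without overlap, and no test was run on the sums. Without the 5 most abundant members it was 87.0 ± 0.966 against 102 ± 2.62 FPKM. The 59 members of the chromosome 6 and 1 clusters alone summed to 285 ± 4.04 against 294 ± 14.5 FPKM, and the groups overlapped. In TMM-scaled CPM these 59 summed to 250 ± 2.50 against 272 ± 10.7 CPM, without overlap. H3 contributed 5.56 ± 0.759 against 6.70 ± 0.473 FPKM, far less than H2B, with overlap in FPKM and none in CPM (8.18 ± 0.942 against 11.6 ± 0.709 CPM). By location, the 48 members on chromosome 6 summed to 250 ± 3.27 against 255 ± 12.4 FPKM, and the 11 on chromosome 1 to 35.3 ± 1.14 against 38.4 ± 2.12 FPKM, and the groups overlapped in both. In TMM-scaled CPM they did not, with 214 ± 1.81 against 229.6 ± 10.3 CPM on chromosome 6 and 35.7 ± 0.702 against 42.3 ± 0.963 CPM on chromosome 1. Called members lay in both clusters. On chromosome 6, 6 of 33 tested were higher (18.2%) and 1 lower (3.03%), and on chromosome 1, 2 of 9 were higher (22.2%). Over all tested genes the shares were 10.4% higher and 12.4% lower. The 2 on chromosome 1 are H4C14 and H4C15, which have identical coding sequences and are best read as a single measurement. The 9 also hold H2AC18 with H2AC19, and H3C14 with H3C15, which are identical pairs too.

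All 10 members called higher had AATAAA near the end of an annotated transcript, which was also true of 11 tested members that were not called. Among the 42 tested members of the chromosome 6 and 1 clusters, 8 of the 19 with the signal were called higher and none lower, and their median was 0.52 on the log2 scale. Of the 23 without it, none was called higher and 1 was called lower, with a median of 0.05. Over all tested genes, 10.4% were called higher and 12.4% lower. Copies with identical coding sequences are counted here as separate members, and H4C14 and H4C15 are both among the 8 called higher. Without knockdown 2, H2BC5, H3C6 and H3C8 of the group with the signal lost the call. This split was made after the fold changes had been seen, so it is a description and was not tested. The group without the signal is of mixed origin, since 13 of its 23 tested members have no 3′ UTR of the searched length in this annotation, H2BC12 and H1-2 among them, and most of its members had few counts. Where the mean count was at least 100, 8 of 14 members with the signal were called higher, against none of the 4 without it, which are H2BC12, H1-2, H4C9 and H2BC4. The 3 members with the signal and a log2 fold change below 0 were H4C5 (-0.79, standard error 0.55, at few counts), H2AC18 (-0.10) and H2AC19 (-0.09), and H2BC15 was near 0 at 0.08. The cluster members with the signal summed to 68.7 ± 0.412 FPKM in the control group and 89.3 ± 3.33 FPKM in the knockdown group, and those without it to 216 ± 4.03 and 205 ± 11.2 FPKM.

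**Figure D4:**
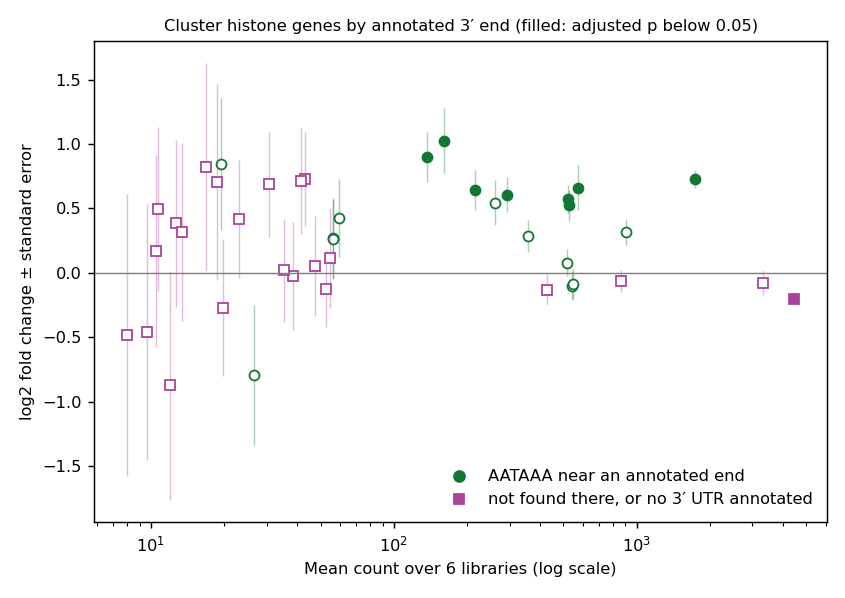
Log2 fold change with its standard error (y axis) against the mean count over 6 libraries (x axis, log scale) for the 42 tested histone genes of the chromosome 6 and 1 clusters, marked by whether AATAAA lay within the last 50 bases of an annotated transcript. The 8 filled points above 0 all carry the signal, and the filled square below 0 is H2BC12.

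From textbook knowledge, 7 members were listed as genes with polyadenylated mRNAs (H1-2, H2AC6, H2BC4, H2BC5, H2BC11, H2BC12 and H2BC21). Of these, 2 were called higher (28.6%), 1 lower (14.3%) and 4 neither, against 10.4% higher and 12.4% lower of all tested genes. The median was 0.32 on the log2 scale, so the members named in that list did not move as a block. H2AW and H4-16, which the list also holds, fall outside the naming rule. Of 4 histone genes known from testis, 2 were in the table, H1-6 and H3-4, and neither had enough counts to be tested.

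The promoters were searched for known elements of histone genes. Over the 250 bases upstream of the RefSeq start (GRCh38.p14), on either strand, the octamer ATTTGCAT bound by OCT1 was found in 23 of 57 matched members (40.4%) against 1.63% of all 35116 promoters, in 12 of 15 H2B and 10 of 13 H2A promoters. CCAAT was found in 84.2% of members and 32.0% of all promoters, and TATAAA in 64.9% and 10.7%. A match is a description of the letters and not evidence of binding. The 120 bases upstream of the start are shown for the H2B gene with the largest called rise and the sole member called lower, with these motifs in capitals on either strand (ATTGG is CCAAT on the other strand).
H2BC9 (chr6:26251494-26251613, plus strand): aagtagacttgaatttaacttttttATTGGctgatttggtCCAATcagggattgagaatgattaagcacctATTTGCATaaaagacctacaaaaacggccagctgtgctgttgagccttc
H2BC12 (chr6:27146859-27146978, minus strand): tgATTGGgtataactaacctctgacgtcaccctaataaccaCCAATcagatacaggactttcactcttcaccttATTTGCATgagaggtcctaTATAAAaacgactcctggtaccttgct
Both stretches hold the octamer and CCAAT on both strands, and TATAAA was found in that of H2BC12.

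Among the genes that act in histone mRNA transcription and processing, NPAT and SLBP fell. NPAT, the S phase coactivator of histone genes, was at 67.2, 61.3 and 64.7 CPM in the control samples and at 49.3, 46.6 and 45.4 CPM in the knockdown samples. It fell by 0.45 on the log2 scale (standard error 0.048, adjusted p = 0.000263). SLBP, which binds the stem-loops shown above, was at 99.4, 97.9 and 99.96 CPM against 84.5, 86.3 and 87.3 CPM and fell by 0.20 on the log2 scale (standard error 0.033, adjusted p = 0.00221). CDK2, the kinase that activates NPAT with cyclin E, fell by 0.29 on the log2 scale, and ERI1, the exonuclease that trims histone mRNA ends, fell by 0.28. SRRT, which links the cap-binding complex to RNA processing, fell by 0.18, whereas SYMPK, the scaffold protein shared by the histone and the poly(A) cleavage machineries, rose by 0.24. Over all tested genes, 12.4% were called lower and 10.4% higher. Of 29 listed genes of histone mRNA transcription and processing, all tested, 12 were called lower (41.4%) and 4 higher (13.8%), and the median was -0.06 on the log2 scale. These counts leaned on single libraries, with 7 called lower without control 2, control 3 or knockdown 2. Only 1 was called higher without control 1, and 2 without control 2, knockdown 2 or knockdown 3.

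S phase genes are transcribed in the same window as the replication-dependent histones. Of 30 listed and tested, 14 were called lower (46.7%), MCM3 was called higher (3.33%) and the other 15 passed in neither direction. Over all tested genes, 12.4% were called lower and 10.4% higher. The list median was -0.14 on the log2 scale. Without knockdown 2, 9 were called lower, and MCM3 lost its call in 5 of the 6 fits that left out 1 library. RRM2, the small subunit of ribonucleotide reductase, was at 664, 649 and 645 CPM against 517, 544 and 540 CPM and fell by 0.29 on the log2 scale (standard error 0.031, adjusted p = 0.000274). Falls of 0.27 for the flap endonuclease FEN1, 0.22 for the ubiquitin ligase adaptor DTL, 0.20 for the helicase subunit MCM7 and 0.17 for the reductase subunit RRM1 also passed the test.

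Histone chaperones carry histones and deposit them on DNA. Of 27 listed and tested, 13 were called lower (48.1%) and 2 higher (7.41%), against 12.4% and 10.4% of all tested genes. The list median was -0.10. Without knockdown 2, 8 were called lower, and only 1 was called higher without knockdown 2 or any single control. DNAJC9, an H3-H4 cochaperone, fell by 0.33 on the log2 scale, HJURP, the chaperone of CENPA, by 0.32, ATRX, which deposits H3.3 with DAXX, by 0.38, CHAF1A, a subunit of the replication-coupled assembly factor CAF-1, by 0.25, and HAT1, which acetylates new H4, by 0.19. ASF1A, which hands H3-H4 to assembly factors, rose by 0.28 (40.1, 39.8 and 39.9 CPM against 49.6, 48.5 and 47.6 CPM).

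Of the 10 tested variant histones outside the naming rule, 4 were called lower and none higher, against 12.4% and 10.4% of all tested genes. The median of the 10 was -0.10 on the log2 scale. CENPA, the H3 variant of centromeres, was at 46.9, 50.1 and 51.7 CPM against 37.3, 36.1 and 37.5 CPM and fell by 0.42 on the log2 scale (standard error 0.050, adjusted p = 0.000431). H2AZ1, the most abundant variant at 316 ± 14.5 FPKM against 290 ± 9.56 FPKM, fell by 0.17 (adjusted p = 0.0179) and H3-3B by 0.17 (adjusted p = 0.0150), and H2AZ2 by 0.11 (adjusted p = 0.0249). Each of these last 3 lost the call when certain single libraries were left out, with adjusted p-values of up to 0.079, 0.060 and 0.087. Counting the other processing settings too, the call was lost in 7 settings for H2AZ1, 6 for H3-3B and 9 for H2AZ2. H2AZ1 alone was thus more abundant per length than any member, including H2BC12. No member list was compared with another by a test, so the opposite medians are given as values.

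**Figure D5:**
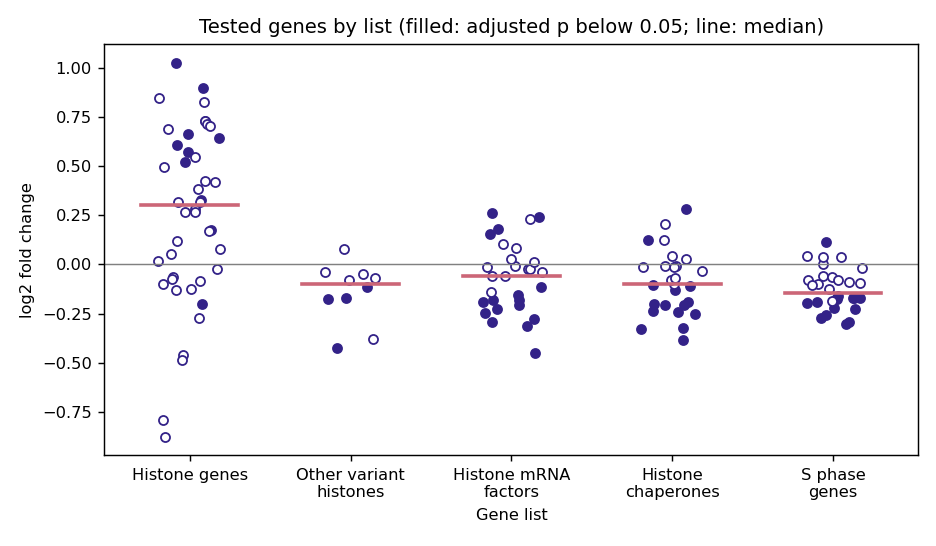
Log2 fold change (y axis, ZNF706 knockdown against control) of each tested gene by list (x axis), filled where the adjusted p was below 0.05, with the median of each list as a line. The median was 0.30 for the histone genes, -0.10 for variant histones outside the naming rule, -0.06 for histone mRNA factors, -0.10 for chaperones and -0.14 for S phase genes.

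Overlap with other genes touched some calls. H1-10 is crossed on the other strand by H1-10-AS1 (43 to 133 counts per library, against 5854 to 8643 for H1-10), H4C14 and H4C15 by the H3 copies H3C14 and H3C15 (35 to 69 counts), and H2BC5 by AL353759 (45 to 114 counts) and, on the same strand, by the pseudogene LARP1P1 (0 to 6 counts). Whether strand was used in counting is not given in the sources used here, so reads of such pairs may not be fully separable. Leaving out members with an overlapping gene on either strand left 6 called higher and 1 lower of 32 tested.

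Markers of other cell types and of RNA classes differed as well, and their part in the histone values was not tested. The leukocyte list (5 of 6 in the table, 4 tested) summed to 27.4, 27.6 and 29.1 CPM in the control samples and 41.3, 44.7 and 41.3 CPM in the knockdown samples, nearly all from CD68, a lysosomal protein that rose by 0.64 on the log2 scale, while the pan-leukocyte gene PTPRC was at 0 in all knockdown samples. Of the 4 tested leukocyte genes, 2 had a log2 fold change above 0 and 2 below. The fibroblast list (5 of 6 tested) summed to 88.9, 79.7 and 83.4 against 95.3, 97.1 and 95.2 CPM, mostly from COL1A1, which rose by 0.20, and PDGFRB rose by 0.68. The other 3 tested fibroblast genes were below 0, and the list median was -0.04. The endothelial list (3 of 4 in the table, 2 tested) summed to 13.6, 14.9 and 16.3 against 11.2, 12.6 and 13.1 CPM, with CDH5, its most abundant gene, lower by 0.70 (adjusted p = 0.00135). The other of the 2 tested endothelial genes was above 0. Of 14 tested hepatocyte and HCC markers, 13 had a log2 fold change below 0, with a median of -0.78, and SERPINA1, APOH and APOB, all at low CPM, were called lower. APOH and APOB lost the call when certain single libraries were left out, with adjusted p-values of up to 0.083 and 0.087. The list summed to 2446, 2517 and 2644 against 2391, 2475 and 2514 CPM, mostly from KRT8. The mitochondrial rRNAs were lower too, MT-RNR2 by 0.44 and MT-RNR1 by 0.23 on the log2 scale. The call on MT-RNR1 was lost without control 1, control 2 or knockdown 2 (adjusted p of 0.051, 0.058 and 0.059), without a filter on low counts (0.061) and in limma-trend on FPKM (0.070).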

How the data were processed

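RNA-seq libraries of 3 control and 3 ZNF706 knockdown samples of LM3 cells were made from total RNA (TRIzol, RIN above 7.0, per the labels) and sequenced on an Illumina NovaSeq system. The authors mapped reads with HISAT2, and the submitters' processing notes name cutadapt 1.9, FastQC and GRCh38. The counting program, its use of strand and the annotation are not given in the sources used here. The authors deposited whole-number counts per gene without normalization, and FPKM values scaled by the authors to gene length and library size. All per-sample columns carried a sample title.

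The counts were analysed in edgeR 4.0.16 under R 4.3.3. The filterByExpr rule kept 18390 genes, library sizes were scaled with TMM factors, and glmQLFit with glmQLFTest compared the groups. P-values were adjusted over these genes by the Benjamini-Hochberg method, with a threshold of 0.05. The model held the group only. FPKM was used for comparing levels between genes and for sums. The method was tested on simulated counts. The table's gene names matched 63 members. All were found in GENCODE release 29, 61 of them by the same ID, and 99.9% of the shared genes overlapped their position there. Stem-loops, AATAAA and coding sequences were read from its transcripts. Sequences upstream of starts are from RefSeq.

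The members, the gene lists and the tests were chosen with earlier results of these data known. The genes named are ZNF706, the 10 most abundant members, every member with an adjusted p below 0.05, the 3 largest rises and falls among tested members, SLBP, NPAT, up to 6 genes of each other list by smallest p, and the most abundant variants. Some results for genes and sequences under this rule are not reported here. H2BC4, H2BC15, H2BC21, MCM3, KRT8, ALB, PTPRC, RN7SK, RN7SL1 and the genes that overlap members lie outside this rule and were named after their values were seen. Coordinates are GRCh38.

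The libraries held 62684076 to 69057423 counts. A count of at most 3 was treated as the floor, for counting error only. The 3 samples of a group differed by more than counting noise, with a chi-square value per gene of 12.8 to 22.2 within groups and 45.9 to 53.9 between them. With 3 against 3 samples an exact permutation test cannot go below p = 0.1, so single values were tested only in the fit across genes.

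Alternatives were DESeq2 1.42.0, its size factors, library size alone, a minimum mean count of 50 or no filter at all, limma-trend (limma 3.58.1) on log2(FPKM + 0.1) with a minimum mean of 1 FPKM, GC and length offsets, a replicate block, each library left out, and members with overlapping genes left out. Summing identical coding sequences, and leaving out members with a gene on either strand, were added after seeing the data.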

Additional observations from a re-analysis of the deposited data

How the results depend on the processing

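Of the 11 members called, 7 kept the call without any single library, and H2BC5, H3C6, H3C8 and H4C15 lost it without at least 1. The number called higher was 10 in the model as reported. It was 12 with DESeq2, 11 with its size factors, 12 with library size alone, 8 without the filter, 12 at a mean count of at least 50, 13 with limma on FPKM, 10 with the GC and 10 with the length offset, 9 with identical coding sequences summed and 9 without members that overlap a gene on the same strand. H2BC12 was called lower in each of these and in every fit without 1 library. With members that overlap a gene on either strand left out, 6 were called higher and 7 in all, because fewer members were counted. Without 1 library, 7 to 10 were called higher and 8 to 11 in all. The median log2 fold change of the tested members stayed between 0.22 and 0.35 in every setting. Over all tested genes, 1906 were called higher and 2286 lower, and 1137 and 1496 without knockdown 2, the smallest counts without 1 library.

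Some uncalled members changed sign without 1 library. Over the fits without 1 library, the log2 fold change ran from -0.16 to 0.026 for H1-2 (above 0 without knockdown 1), from -1.30 to 0.23 for H2AC16 (above 0 without control 1) and from -1.36 to 0.14 for H3C3 (above 0 without control 3). The cause was not tested.

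Whether the replicate numbers pair the samples is not settled by these data. The deviations of same-numbered samples correlated at 0.32, -0.02 and 0.35, and those of differently numbered samples at -0.40 to 0.07. With the replicate block, 11 members were called higher and 12 in all, and the same numbers were found with the GC offset added. Summing members with identical proteins was not run, since no protein sequences were used here.

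Depth limits many of the 39 members with a mean below 1 FPKM, among them the 19 that were not tested. H2BC9 and H3C6, also among the 39, were nevertheless called higher. A stem-loop mRNA without a tail, if not captured, is not measured here, and the split of counts between copies with identical coding sequences is uncertain.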
